A study of Mus musculus with 6 samples.

Results

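Genes encoding the nuclear subunits of the oxidative phosphorylation machinery were examined in mouse embryonic stem cells. Members were the rows of the expression table whose symbols begin with Ndufa, Ndufb, Ndufc, Ndufs or Ndufv and a digit (complex I), are Sdha to Sdhd (complex II), begin with Uqcr (complex III), begin with Cox4 to Cox8 (complex IV) or begin with Atp5 (complex V), and that reached a normalized count of 10 in at least 2 of the 6 libraries. Of 83 rows with such symbols, 80 met the value rule, out of 19713 genes in the table. The tissue-restricted isoforms Cox6a2, Cox8b and Cox8c did not meet it. Complex I had 34 members, complex II 4, complex III 8, complex IV 17 and complex V 17. Ndufa4 and Ndufa4l2 were counted with complex IV, where NDUFA4 is now placed despite its name. Cox7a2l, a factor of respiratory supercomplexes, and Atp5s and Atp5sl match the pattern without being subunits. The subunits encoded by mitochondrial DNA were not analysed here.

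The 3 genotypes had been sequenced as total RNA, with 2 libraries each, numbered replicate 1 and replicate 2. KO cells lack exon 2 of Thap1 (labelled THAP1 -/-), C54Y cells are homozygous for a missense change in Thap1, and WT cells carry neither change. All were C57Bl/6 embryonic stem cells derived from blastocysts and grew on a layer of irradiated mouse embryonic fibroblasts, in medium with fetal calf serum and LIF at 1000 units per ml (the cytokine that keeps such cells undifferentiated), so each library can hold RNA of feeder fibroblasts. The labels give neither a clone nor a culture for any library, nor what the replicate number marks, so p-values measure only the spread between these samples.

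Oxidative phosphorylation makes ATP in the inner mitochondrial membrane. Complexes I and II pass electrons from NADH and succinate to ubiquinone, complex III passes them on to cytochrome c, and complex IV to oxygen, while complexes I, III and IV pump the protons that complex V, the ATP synthase, uses to make ATP. Most subunits are encoded in the nucleus, and the transcription factors NRF1, the ETS factor GABPA and YY1 are known regulators of many of these genes. THAP1 binds DNA through an atypical zinc finger, and its mutation in people causes DYT6, a dystonia. Mouse embryonic stem cells make ATP by both glycolysis and respiration.

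Values are normalized counts, the reads of a gene divided by a size factor of its library. Differences are log2 fold changes of the normalized count plus 2, KO or C54Y over WT and KO over C54Y, fitted with limma with replicate number as a block over 15287 genes. A gene was called where its Benjamini-Hochberg adjusted p was under 0.05. Libraries held 31774656 to 46772996 reads. Thap1 itself had 1975 and 1687 normalized counts in KO libraries 1 and 2, 2253 and 2533 in C54Y libraries, and 433 and 701 in WT libraries. It was higher in both mutants (log2 fold change 1.72 in KO and 2.11 in C54Y). Reads summed over all exons cannot show the lost exon or the altered codon. Markers of embryonic stem cells were present in every library (12 of 12 tested, 0.579% to 1.17% of reads). Fibroblast markers took 0.0103% and 0.0423% of reads in KO, 0.0224% and 0.0508% in C54Y, and 0.0242% and 0.0431% in WT.

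In KO cells, 13 members rose and 1 fell of 80 relative to WT. The count that rose was 0 without the replicate block, 8 with only the 4 libraries compared or without C54Y replicate 2, 7 without either WT replicate and 37 without KO replicate 2. Over all 15287 genes tested, 8.9% were called up and 7.41% down. In either direction 14 members were called, a share near the 16.3% of all genes, so the members did not stand out by the total called. By direction, the 13 that rose were a larger share than the 8.9% of all genes. The 1 that fell was a smaller share than the 7.41%. These shares were not tested against each other. Members that rose came from complexes I (Ndufb11, Ndufa1, Ndufa11, Ndufb4, Ndufv3), III (Uqcr10, Uqcrc1), IV (Cox5a, Ndufa4l2) and V (Atp5g1, Atp5g3, Atp5b, Atp5a1), and the one that fell was Cox4i2 of complex IV. Most of these changes were under 2-fold: only Ndufa4l2 exceeded it upwards (2.68-fold) among the 13. The median log2 fold change of the members was 0.17, against 0.03 over all genes tested, and 67 members had a positive value. In bulk RNA, fewer cells of a type and less RNA per cell cannot be told apart. The 3 comparisons share libraries, so their values are set side by side below and not used to support each other.

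**Figure D1:**
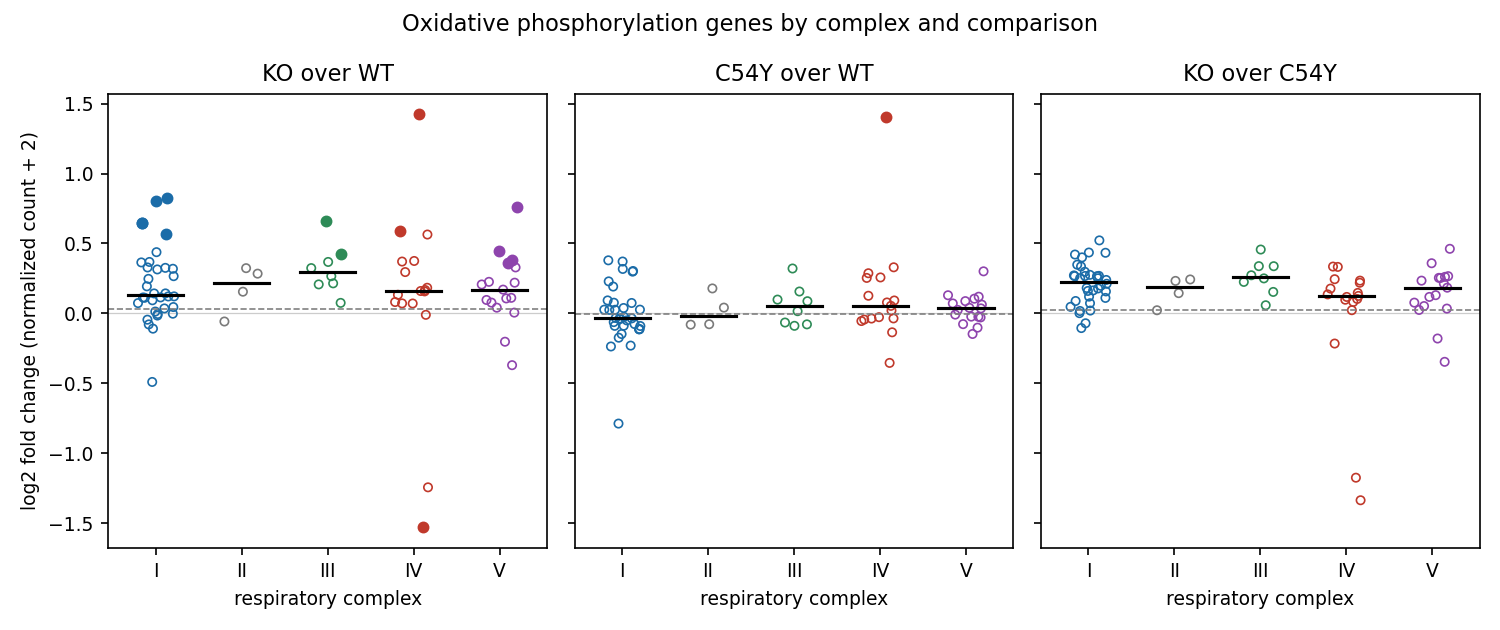
Log2 fold change (vertical axis) of each of the 80 members by respiratory complex (horizontal axis) for KO over WT, C54Y over WT and KO over C54Y. Each point is 1 gene, filled where its adjusted p was under 0.05, black bars are the medians of a complex and the dashed line is the median of all genes tested; medians lie between 0.13 and 0.30 for KO over WT and between -0.03 and 0.05 for C54Y over WT.

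The KO difference was not the same within the replicate numbers. Within replicate 1 the members' median log2 difference of KO from WT was 0.34 (0.12 over all genes tested), and within replicate 2 it was 0.09 (-0.02 over all genes). KO was higher than WT in both replicates for 46 members and lower in both for 8, where 36.1% and 29.5% of all genes tested were higher or lower in both. For 24 members KO was higher in replicate 1 and lower in replicate 2, and for 2 (Atp5g2 and Atp5sl) it was the reverse. The widest gap between replicates among those 24 was that of Ndufa5, an accessory subunit of the ubiquinone-reducing module of complex I, at 0.74 in replicate 1 and -0.55 in replicate 2. All 14 called members had the same direction in both replicates.

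**Figure D2:**
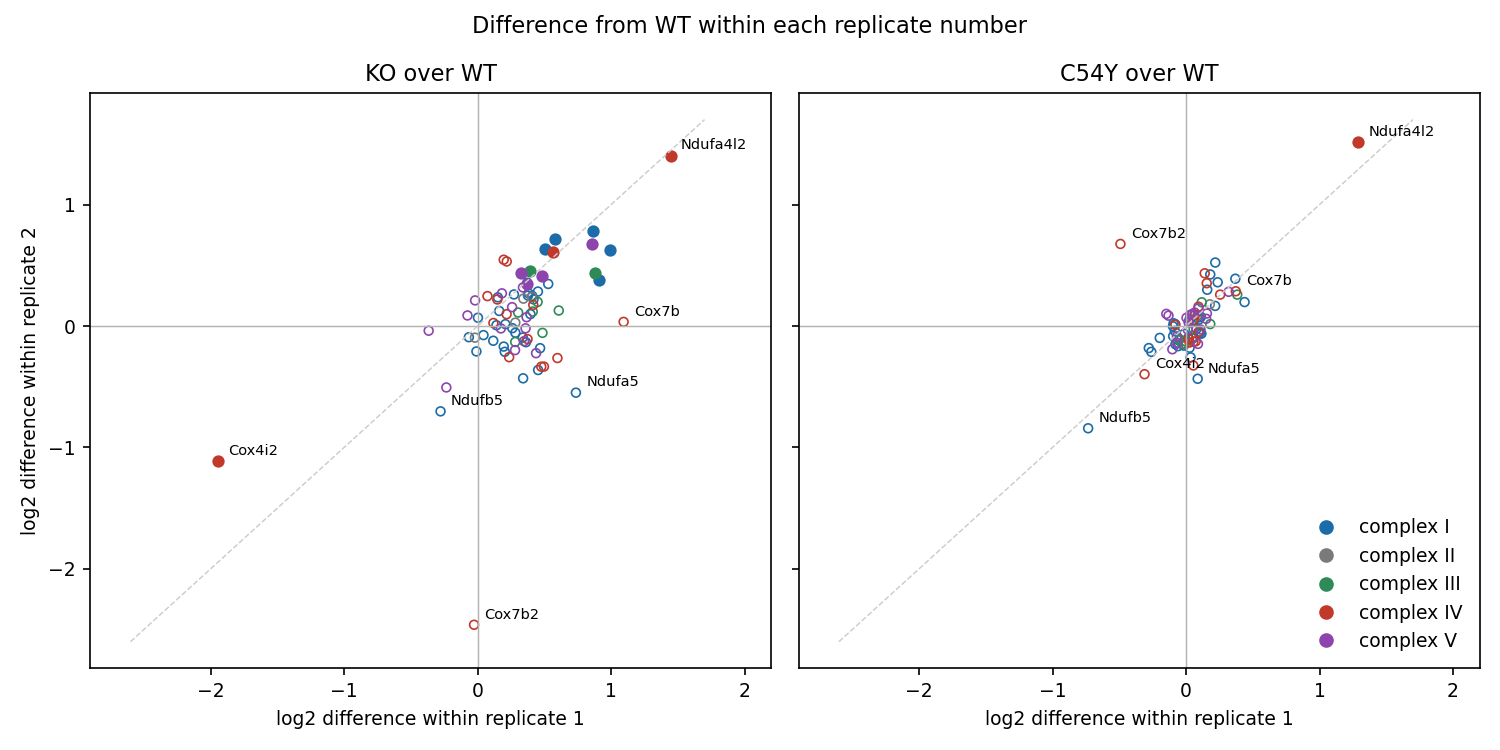
Log2 difference of KO from WT (left) and of C54Y from WT (right) within replicate 1 (horizontal axis) and within replicate 2 (vertical axis), 1 point per member, coloured by complex and filled where called. In the KO panel 24 members lie at the lower right, higher in replicate 1 and lower in replicate 2. Ndufa4l2 (1.45 and 1.40) lies far from the others near the diagonal, and Cox4i2 (-1.94 and -1.11) far to the lower left. Cox7b2 lies lowest on the vertical axis, with 0 normalized counts in KO library 2 and 9.01 in WT library 2.

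Complex I, the NADH dehydrogenase, has a peripheral arm with an NADH-oxidizing N module and a ubiquinone-reducing Q module, and a membrane arm that pumps protons. Of its 5 called members, 4 belong to the membrane arm (4 up, 0 down of 18, median 0.22), and 1 to the N module (1 up, 0 down of 8, median 0.08), while the Q module had none of 8 called (median 0.08, 2 members at an unadjusted p under 0.05 with limma). Over all genes tested, 8.9% were called up and 7.41% down. Of the called membrane-arm members, Ndufb11 and Ndufa1 are X-linked, and 189 of 567 X-linked genes tested were called up and 19 down. The membrane-arm accessory subunit Ndufb11, encoded on the X chromosome, had 3991 and 8509 normalized counts in KO libraries 1 and 2, 2487 and 6621 in C54Y libraries, and 2192 and 4932 in WT libraries. KO was the highest genotype within each replicate number, although KO library 1 lay under WT library 2, so the groups overlapped. The log2 fold change of KO over WT was 0.83 ± 0.14 (SE), with an adjusted p of 0.00689 in the blocked limma fit. A further X-linked membrane-arm subunit, Ndufa1, needed for assembly of the complex, had 2172 and 2576 normalized counts in KO, 1272 and 2405 in C54Y, and 1092 and 1673 in WT. Its KO and WT libraries did not overlap, and it rose by 0.81 ± 0.18 (SE) on the log2 scale (adjusted p = 0.0199, limma with the replicate block).

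Among the autosomal members, Ndufa11, a membrane-arm subunit, had 2589 and 9633 normalized counts in KO, 1932 and 7199 in C54Y, and 1731 and 5851 in WT. It rose by 0.65 ± 0.14 (SE, adjusted p = 0.0142, limma with the replicate block). Ndufb4, likewise of the membrane arm, had 3125 and 5245 normalized counts in KO, 2147 and 5275 in C54Y, and 1661 and 4026 in WT. Its difference was larger in replicate 1 (0.91) than in replicate 2 (0.38), and over both it rose by 0.65 ± 0.17 (SE, adjusted p = 0.0344, limma with the replicate block). Ndufv3, an accessory subunit of the N module, had 1952 and 6575 normalized counts in KO, 1624 and 5448 in C54Y, and 1377 and 4244 in WT, a rise of 0.57 ± 0.14 (SE, adjusted p = 0.0256, limma with the replicate block). In all 3 genes the replicate 2 libraries were the higher ones, KO exceeded WT within each number, and the groups overlapped across numbers.

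None of the core catalytic subunits of complex I was called. Ndufs1, which carries iron-sulfur clusters, had 4554 and 2163 normalized counts in KO, 3406 and 2325 in C54Y, and 3326 and 2781 in WT, so KO was above WT in replicate 1 and below it in replicate 2 (log2 fold change 0.05 ± 0.19 SE, adjusted p = 0.905, limma with the replicate block). Ndufv1, which binds NADH, and Ndufs8 of the Q module were above WT in both replicates without passing the test (0.36, adjusted p = 0.0846, and 0.44, adjusted p = 0.0708, limma with the replicate block). Ndufs3 and Ndufs7, core subunits of the Q module, had values of -0.02 and 0.27.

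Promoters of 2 complex I members that rose are shown because they differ in the letters of a known regulator. Each is the RefSeq window of GRCm38.p6 from 250 bases before to 50 after the annotated start, printed 5′ to 3′ on the gene's strand, at chr17:56717512-56717811 (plus strand) for Ndufa11 and chrX:20617570-20617869 (minus strand) for Ndufb11. Capitals mark GCGCATGC on either strand, the core of the palindromic motif bound by NRF1.
Ndufa11: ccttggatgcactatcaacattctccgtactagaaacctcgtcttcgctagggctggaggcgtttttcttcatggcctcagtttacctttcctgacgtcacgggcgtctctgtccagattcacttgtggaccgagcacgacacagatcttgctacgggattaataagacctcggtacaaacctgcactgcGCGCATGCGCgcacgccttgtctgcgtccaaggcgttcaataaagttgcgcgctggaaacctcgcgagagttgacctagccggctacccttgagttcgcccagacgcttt
Ndufb11: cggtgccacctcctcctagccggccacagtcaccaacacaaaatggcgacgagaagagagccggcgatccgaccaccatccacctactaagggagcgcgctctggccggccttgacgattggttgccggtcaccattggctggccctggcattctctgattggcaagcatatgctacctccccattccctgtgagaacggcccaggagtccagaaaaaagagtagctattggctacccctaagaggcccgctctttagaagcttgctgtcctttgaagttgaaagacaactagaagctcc
Ndufa11 holds overlapping matches on both strands, and Ndufb11 holds none of GCGCATGC, CCGGAAG (ETS factors such as GABPA) and GATGGCGG (YY1).

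Ndufb5, a membrane-arm accessory subunit, had the lowest log2 fold change of complex I in KO over WT. It had 1751 and 2649 normalized counts in KO, 1276 and 2405 in C54Y, and 2123 and 4312 in WT. Both mutants were below WT within each replicate number, while the groups overlapped across replicates. The log2 fold change was -0.49 ± 0.16 (SE, adjusted p = 0.0694) for KO over WT and -0.79 ± 0.16 (SE, adjusted p = 0.0545) for C54Y over WT, neither called by limma with the block on the deposited scaling. With TMM scaling factors the same limma fit called both (adjusted p = 0.0339 in KO and 0.0425 in C54Y). The C54Y value also passed with edgeR on TMM factors (adjusted p = 0.0432) and DESeq2 (adjusted p = 0.00346), both with the block, and the KO value with edgeR (adjusted p = 0.0348) but not with DESeq2 (adjusted p = 0.0675). In GENCODE M21, 12.2% of its exon bases overlap Mrpl47 on the opposite strand, and the strand setting of the counting is not given in the sources used here. Mrpl47, a mitochondrial ribosomal protein, had 962 and 653 normalized counts in KO, 676 and 782 in C54Y, and 1048 and 993 in WT, and was not called in either mutant. The Ndufb5 promoter (GRCm38.p6, chr3:32736813-32737112, plus strand, RefSeq) is shown with capitals marking TNNGGCA, the core letters of the THAP1 motif, on either strand.
Ndufb5: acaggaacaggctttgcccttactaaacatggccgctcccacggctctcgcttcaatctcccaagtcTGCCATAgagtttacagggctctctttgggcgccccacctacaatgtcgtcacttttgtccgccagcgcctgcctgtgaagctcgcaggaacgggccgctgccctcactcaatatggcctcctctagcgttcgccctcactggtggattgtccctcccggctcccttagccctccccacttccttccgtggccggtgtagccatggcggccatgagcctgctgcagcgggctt

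Complex II, succinate dehydrogenase, is the only respiratory complex with all subunits encoded in the nucleus, and it also belongs to the citric acid cycle. None of its 4 members was called (1 had an unadjusted p under 0.05 with limma), with a median of 0.22. Its flavoprotein Sdha had 11487 and 11472 normalized counts in KO, 9798 and 11001 in C54Y, and 8659 and 9718 in WT. Every KO value exceeded every WT and every C54Y value and every C54Y value exceeded every WT value. The log2 fold change was 0.32 ± 0.12 (SE, adjusted p = 0.113, limma with the replicate block). Groups did not overlap for 3 members with KO higher (Sdha, Ndufa1, Cox7b) and 1 with KO lower (Atp5s), where 13.6% of all genes tested stood apart in each direction. The membrane anchor Sdhc was at the other end, with 3135 and 5621 normalized counts in KO, 3065 and 5572 in C54Y, and 3178 and 6007 in WT (-0.06 ± 0.13 SE).

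Complex III, the cytochrome bc1 complex, had the highest median of the 5 complexes in KO over WT (0.30), and all 8 members had positive values, 2 of them called. The small subunit Uqcr10 had 3894 and 10279 normalized counts in KO, 2763 and 9065 in C54Y, and 2118 and 7577 in WT. The order KO, C54Y, WT from high to low held within each replicate number, with overlap across numbers, and the rise over WT was 0.66 ± 0.15 (SE, adjusted p = 0.0201, limma with the replicate block). Uqcrc1, a core subunit facing the matrix, had 11106 and 28010.0 normalized counts in KO, 8965 and 21731 in C54Y, and 8445 and 20442 in WT, a rise of 0.42 ± 0.11 (SE, adjusted p = 0.0363, limma with the replicate block) that edgeR and DESeq2 did not call. Uqcrh, the hinge subunit, had 4011 and 9484 normalized counts in KO, 3191 and 9632 in C54Y, and 3299 and 10387 in WT. Its log2 fold change of 0.08 was the lowest of the complex, with KO above WT in replicate 1 (0.28) and below it in replicate 2 (-0.13). Cytochrome c1 (Cyc1), the catalytic heme subunit of complex III whose symbol the pattern leaves out, had 8891 and 22831 normalized counts in KO, 6989 and 16639 in C54Y, and 6134 and 16856 in WT. It rose in KO by 0.49 ± 0.12 (SE, adjusted p = 0.0288, limma with the replicate block). Of 7 tested genes listed beside the members because the pattern leaves them out, Cyc1 was the 1 called up and 0 were called down. Over all genes tested, 8.9% were called up and 7.41% down. The median of the 7 was 0.07, with 4 positive and 3 negative values.

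The promoter of Uqcrc1 (GRCm38.p6, chr9:108936398-108936697, plus strand, RefSeq) is shown as the other called member with the NRF1 letters GCGCATGC, in capitals on either strand; here they lie just after the annotated start.
Uqcrc1: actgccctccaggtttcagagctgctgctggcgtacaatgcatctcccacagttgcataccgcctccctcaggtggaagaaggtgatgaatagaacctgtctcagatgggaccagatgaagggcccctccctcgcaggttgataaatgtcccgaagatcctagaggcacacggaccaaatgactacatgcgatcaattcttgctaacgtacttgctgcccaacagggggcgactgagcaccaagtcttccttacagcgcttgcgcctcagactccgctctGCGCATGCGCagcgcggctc

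Complex IV, cytochrome c oxidase, combined the widest changes in both directions. Ndufa4l2, a paralog of the complex IV subunit Ndufa4 known as a hypoxia-inducible gene, had 74.7 and 228 normalized counts in KO, 66.6 and 247 in C54Y, and 26.1 and 84.9 in WT. Both mutants were above WT within each replicate number, and the groups overlapped across numbers. The log2 fold change was 1.42 ± 0.27 for KO (SE, adjusted p = 0.0102, limma with the replicate block) and 1.40 ± 0.27 for C54Y (SE, adjusted p = 0.04995, limma with the replicate block). The C54Y call was lost in 8 of 14 alternatives with the block, a pseudocount of 1 or 8 among them. Per kilobase of exon its mean level over the 6 libraries was 129.7 normalized counts, against 9509 for Ndufa4, whose values were 6015 and 6157 in KO, 4342 and 7065 in C54Y, and 4262 and 7762 in WT.

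Cox5a, a matrix-side subunit, had 9305 and 18719.6 normalized counts in KO, 7002 and 15635 in C54Y, and 6289 and 12245 in WT. KO exceeded WT by 0.57 in replicate 1 and 0.61 in replicate 2, and it rose by 0.59 ± 0.12 (SE, adjusted p = 0.0147, limma with the replicate block). In GENCODE M21, 41.7% of its exon bases overlap Gm26631 on the opposite strand. The X-linked Cox7b had 8851 and 5126 normalized counts in KO, 5369 and 6105 in C54Y, and 4146 and 5006 in WT, a difference of 1.09 in replicate 1 and 0.03 in replicate 2. It was not called (0.56 ± 0.24 SE, adjusted p = 0.142, limma with the replicate block). Cox5b, which binds zinc, had 5189 and 10526 normalized counts in KO, 4575 and 10040.2 in C54Y, and 4405 and 12576 in WT, and its value was -0.01.

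Isoform pairs of complex IV were examined because the tissue-restricted forms replace the common ones in particular tissues. Cox4i2, the lung-enriched isoform of subunit 4 that responds to oxygen, had 4.34 and 29.3 normalized counts in KO, 17.7 and 49.4 in C54Y, and 22.4 and 65.6 in WT. KO was lowest within each replicate number, and Cox4i2 fell by 1.53 on the log2 scale in KO (SE 0.41, adjusted p = 0.0349, limma with the replicate block). These values are low, as 1 read equals 0.869 normalized counts in KO library 1. DESeq2 did not call Cox4i2. Where 50 normalized counts in 2 libraries were required, Cox4i2 did not meet the filter and was not tested. The common isoform Cox4i1 had 14483 and 41256 normalized counts in KO, 14865 and 34144 in C54Y, and 12450.1 and 28538 in WT, and did not pass (0.37, adjusted p = 0.0724, limma with the replicate block). Cox6b2, known from testis, had 2099 and 3980.2 normalized counts in KO, 1955 and 3044 in C54Y, and 1832 and 2725 in WT. Cox7a1, the isoform of heart and skeletal muscle, had 222 and 458 in KO, 226 and 609 in C54Y, and 205 and 450.4 in WT. Neither was called, at log2 fold changes of 0.37 and 0.07 in KO. Cox7b2, known from testis, had 13.9 and 0 in KO, 9.52 and 15.6 in C54Y, and 14.2 and 9.01 in WT. Of the isoforms too low for the test, Cox8c had 5.21 and 26.7 in KO, 2.04 and 7.79 in C54Y, and 2.99 and 9.01 in WT, Cox6a2 at most 6.50 and Cox8b at most 1.49 in any library. Per kilobase of exon, Cox4i1 had the highest mean level of complex IV (31751 normalized counts) and Cox7b2 the lowest (19.1).

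Complex V, the ATP synthase, has a catalytic F1 head, a membrane Fo part with the rotating c ring, and a stalk that joins them. Both called F1 members are the subunits that form its nucleotide-binding hexamer, and neither was called with edgeR, DESeq2, limma on TMM factors or only the 4 libraries compared. Atp5b, the catalytic beta subunit, had 75642 and 127583 normalized counts in KO, 64499 and 104165 in C54Y, and 60476 and 94158 in WT, and rose by 0.38 ± 0.09 (SE, adjusted p = 0.0222, limma with the replicate block). Atp5a1, the alpha subunit, had 50607 and 91608 normalized counts in KO, 43435 and 75102 in C54Y, and 39126 and 72064 in WT, and rose by 0.36 ± 0.09 (SE, adjusted p = 0.0329, limma with the replicate block). Per kilobase of exon, Atp5b had the highest mean level of the 79 members with a length, at 45801 normalized counts.

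A set of 3 genes encodes the same mature c subunit of the Fo ring, and 2 of them rose. Atp5g1 had 5789 and 19499 normalized counts in KO, 3998 and 14879 in C54Y, and 3203 and 12237 in WT. Its rise of 0.76 ± 0.13 had the smallest adjusted p of the members (SE, adjusted p = 0.00585, limma with the replicate block). Atp5g3 had 12463 and 29677 normalized counts in KO, 9336 and 24092 in C54Y, and 8927 and 22308 in WT, and rose by 0.45 ± 0.11 (SE, adjusted p = 0.0299, limma with the replicate block), which edgeR and DESeq2 did not call. Atp5g2 had 9812 and 29625 normalized counts in KO, 10263 and 27368 in C54Y, and 9941 and 25594 in WT, and was not called (0.10 ± 0.12 SE). The mRNAs come from separate genes with different targeting sequences, and differences between their fold changes were not tested. At the low end, Atp5s, a coupling factor outside the enzyme, had 282 and 262 normalized counts in KO, 299.9 and 400.1 in C54Y, and 332 and 373 in WT, a log2 fold change of -0.37 that did not pass (adjusted p = 0.304, limma with the replicate block).

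The promoter of Atp5g1 (GRCm38.p6, chr11:96075582-96075881, minus strand, RefSeq) is shown because the gene had the smallest adjusted p and its window holds no match to GCGCATGC, CCGGAAG, GATGGCGG or TNNGGCA, so it has no capitals.
Atp5g1: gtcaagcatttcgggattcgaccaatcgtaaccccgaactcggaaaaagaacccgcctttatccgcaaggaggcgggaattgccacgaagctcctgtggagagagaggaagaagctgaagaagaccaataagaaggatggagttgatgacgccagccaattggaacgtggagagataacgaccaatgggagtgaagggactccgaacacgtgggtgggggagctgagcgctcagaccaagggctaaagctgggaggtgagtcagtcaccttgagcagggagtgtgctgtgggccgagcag

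Over the 67 members with a RefSeq window, GCGCATGC was found in 14.9% of promoters, against 5.15% of 11306 tested genes with a window and 2.80% of all 27025 windows. CCGGAAG was found in 22.4% of members' promoters, against 16.5% and 9.12%, and GATGGCGG in 8.96%, against 3.25% and 1.74%. TNNGGCA was found in 32.8%, against 37.1% and 40.0%. Both strands were searched, and matches of different motifs overlapped in 1 promoter. Of 11 members with a window that rose in KO, 2 held GCGCATGC (Ndufa11 and Uqcrc1), 3 held TNNGGCA, and 0 held either of the other motifs. A match is a description of letters and not of binding.

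**Figure D3:**
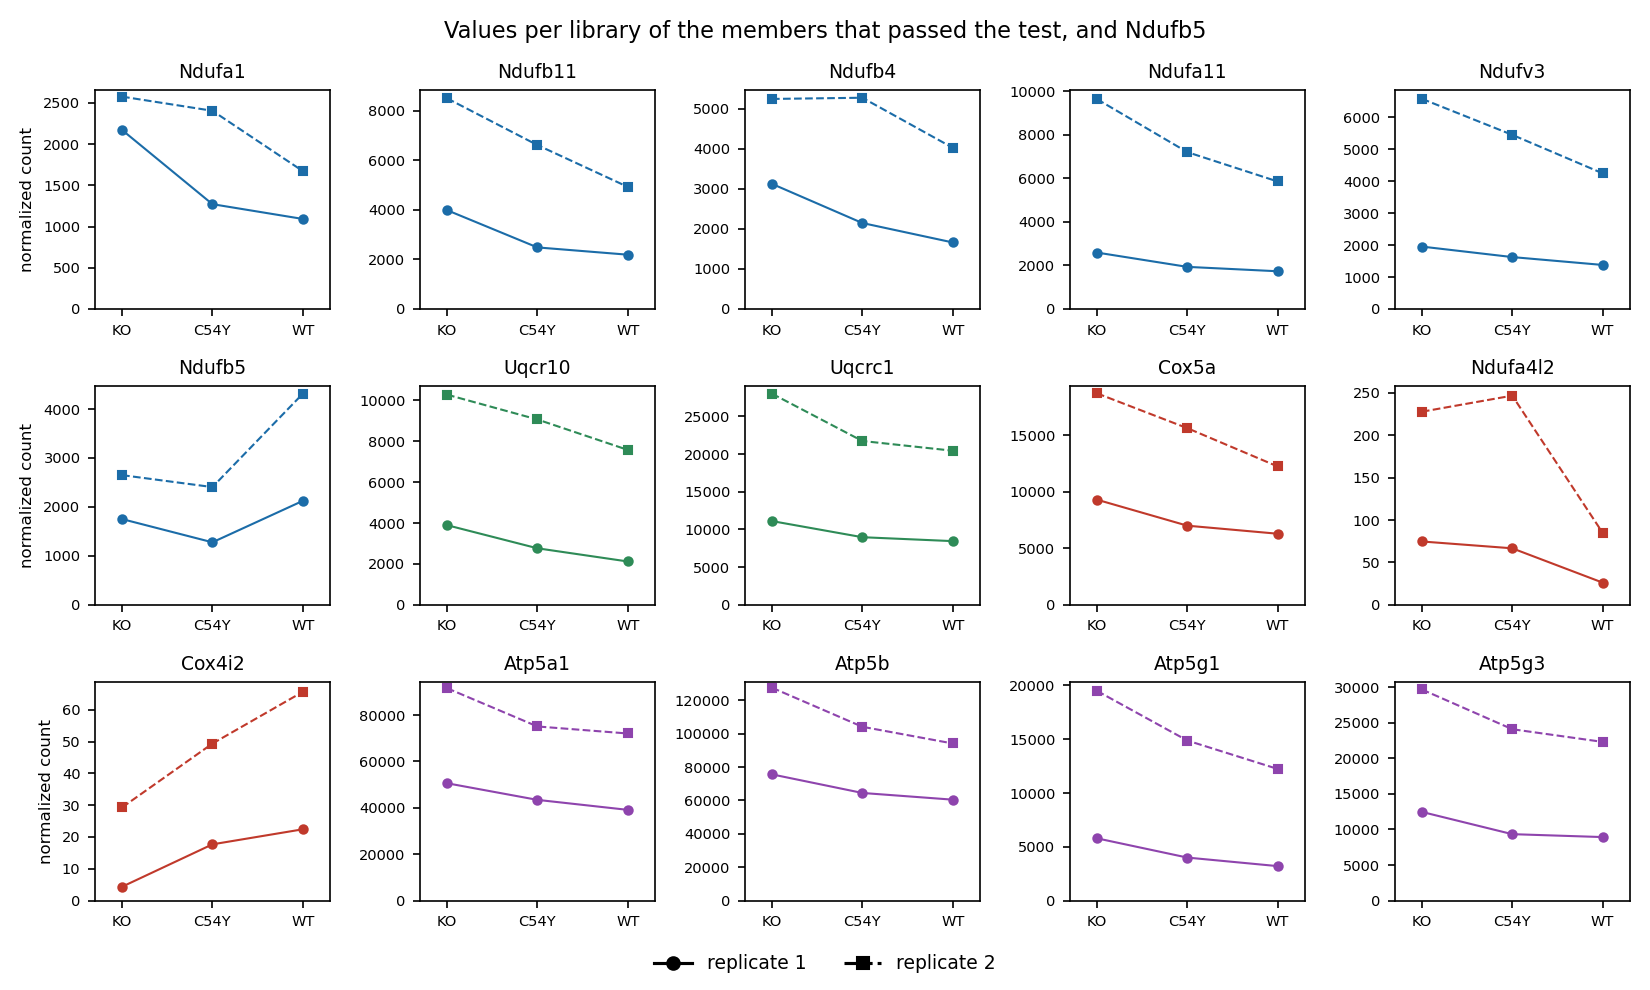
Normalized counts (vertical axes from 0, scaled per gene) of the 14 members called in KO over WT and of Ndufb5 in KO, C54Y and WT libraries, with replicate 1 as circles and solid lines and replicate 2 as squares and dashed lines; lines join libraries of 1 replicate number. Within each replicate number KO lies above WT for the 13 members that rose and below WT for Cox4i2 and Ndufb5, while replicate 2 lies above replicate 1 in every panel.

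In C54Y cells, 1 member was called relative to WT, Ndufa4l2, and 0 fell, where 0.962% of all genes tested were called up and 0.399% down, 1.36% in either direction. Leaving out 1 library moved the count that rose to between 0 (without either C54Y replicate or WT replicate 2) and 8 (without KO replicate 1). At an unadjusted p under 0.05, 3 of 80 members passed with limma. The members' median log2 fold change was 0.02, against 0.00 over all genes, with complex medians from -0.03 (complex I) to 0.05 (complexes III and IV). C54Y was higher than WT in both replicates for 34 members and lower in both for 21, where 33.5% and 32.6% of all genes tested were so. The 12 members other than Ndufa4l2 that rose in KO had positive values in C54Y, from 0.09 (Uqcrc1) to 0.38 (Ndufb4), and none was called. Groups did not overlap for 2 members with C54Y higher (Sdha and Cox7b) and 0 with it lower, where 9.3% and 8.69% of all genes stood apart.

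In the direct comparison of KO with C54Y no member was called, where 0.0458% of all genes tested were called up and 0.144% down, 0.19% in either direction. Without KO replicate 2, 27 members were called up. By limma 15 members had an unadjusted p under 0.05, and edgeR and DESeq2 with the block also called 0. The median was 0.19, against 0.03 over all genes, and 73 of 80 members had positive values. It was 0.30 within replicate 1 and 0.08 within replicate 2. KO was higher in both replicates for 49 members and lower in both for 5, where 33.3% and 25.7% of all genes were so. Ndufb11 had the highest value (0.52, adjusted p = 0.149, limma with the replicate block). The member with the lowest p in KO over WT, Atp5g1, had 0.46 (adjusted p = 0.149, limma with the replicate block). KO and C54Y libraries did not overlap for 2 members with KO higher (Sdha and Atp5f1) and 1 with KO lower (Atp5s), against 8.64% and 8.84% of all genes.

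Summed over the 80 members, 1.29% and 2.00% of reads fell in these genes in KO libraries 1 and 2, 1.18% and 1.93% in C54Y, and 1.15% and 1.85% in WT. The share in KO was 1.12 times that in WT in replicate 1 and 1.08 times in replicate 2, and that in C54Y was 1.03 and 1.04 times that in WT. Complex V made up the largest part, with 0.602% and 0.937% of reads in KO, 0.566% and 0.880% in C54Y, and 0.546% and 0.827% in WT. Its ratio of KO over WT was 1.10 in replicate 1 and 1.13 in replicate 2. For complex I the ratios were 1.11 and 1.02, and for complex III 1.21 and 1.09. The shares were not tested.

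**Figure D4:**
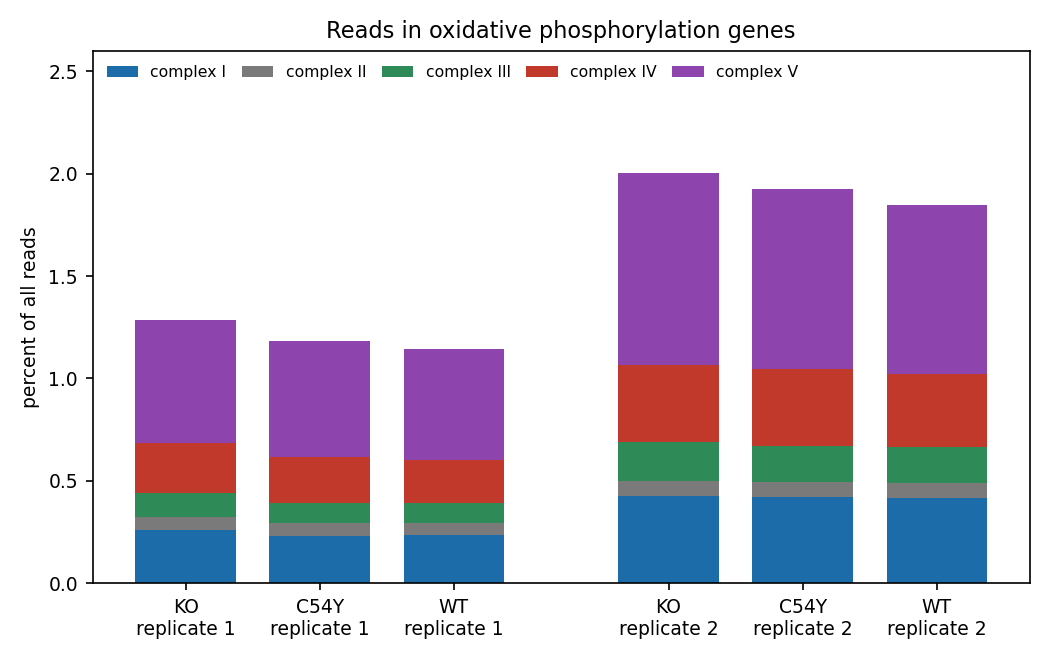
Percent of all reads (vertical axis, from 0) in members of each complex, stacked, for KO, C54Y and WT libraries of replicate 1 (left) and replicate 2 (right). The total is highest in KO within each replicate number (1.29% and 2.00%), and every replicate 2 library exceeds every replicate 1 library.

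The members' median difference between replicate numbers exceeded that between genotypes. Members had a median log2 difference of replicate 2 over replicate 1 of 1.09 in KO, 1.25 in C54Y and 1.30 in WT, against 0.05, -0.01 and 0.00 over all genes tested. Of the 80 members, 72 were higher in replicate 2 in KO, 79 in C54Y and 78 in WT. Ndufs1 was lower in replicate 2 in all 3 genotypes. Most members are short, with a median exon length of 983 bp against 3187.5 bp over tested genes with a length, and short genes as a whole differed in the same direction. In genes under 1000 bp the median was 0.85 in KO, 1.02 in C54Y and 0.96 in WT over 877 tested genes, and 1.25, 1.37 and 1.37 over the 40 members among them. In genes of 4000 bp or more it was -0.65, -0.67 and -0.62 over 5479 tested genes. The same classes differed less between genotypes. Under 1000 bp, KO over WT had a median of 0.24 in replicate 1 and 0.05 in replicate 2 over all tested genes. Over members it was 0.28 and 0.09. From 1000 to under 2000 bp the medians were 0.12 and 0.03 over all tested genes, and 0.34 and 0.03 over 29 members. From 2000 to under 4000 bp they were 0.11 and -0.01 over all tested genes, and 0.39 and 0.23 over 8 members. At 4000 bp or more they were 0.10 and -0.09, and 0.62 and 0.39 over 2 members. Differences between members and all genes of a class were not tested. Rn45s, the ribosomal RNA precursor, made up 0.472% to 0.600% of replicate 1 libraries and 1.49% to 2.05% of those of replicate 2, and its part in these values was not tested.

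Genes of the X chromosome and cell type markers also differed between KO and WT. X-linked genes tested had a median log2 fold change of 0.59 in KO (189 up and 19 down of 567), and the X-linked members Ndufb11, Ndufa1 and Cox7b had 0.81, with 2 of 3 called. Without them the members' median was 0.16, and 11 rose and 1 fell of 77. Endoderm markers had 12 down of 13 tested in KO (median log2 fold change -1.98) and 9 in C54Y (median -1.68). The members' medians were 0.17 in KO and 0.02 in C54Y. The summed normalized count of the endoderm markers was 13686 and 14153 in KO, 16898 and 14717 in C54Y, and 41823 and 25195 in WT. Among these markers, Gata4, Gata6 and Sox17 were above 0 in every library. Of 12 embryonic stem cell markers 7 rose in KO and 1 in C54Y. Fibroblast markers had 0 up and 1 down (Mmp2) of 18 in KO. The fibroblast marker sum was 3639.6 and 18982 in KO, 7131 and 20961 in C54Y, and 7542 and 17938 in WT. KO library 1 was the lowest, the library of the replicate in which the members' difference from WT was larger. Within replicate 2 the sum in KO was above that in WT, although only 6 of the 18 tested markers were higher in KO there. The median log2 fold change of these 18 was -0.50 in KO. Of them, 12 were lower in both replicates, where 29.5% of all genes tested were so. Lum was at 0 in all libraries but C54Y library 1 (1.36) and Dcn was between 1.74 and 16.4, while Col1a1, Col1a2, Col3a1 and Thy1 had reads in all 6. The part of these cell types and of the X chromosome in the members' values was not tested, apart from the values without X-linked members.

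Other genes of the pathway were counted from written lists. Beside each list, 8.9% of all genes tested were called up and 7.41% down in KO, and 0.962% and 0.399% in C54Y. Of 47 assembly factors tested, 3 rose and 0 fell in KO, with a median of 0.11: Pet100 and Sco1, which act in the biogenesis of complex IV, and Foxred1, which acts in that of complex I. Pet100 had 1205 and 2644 normalized counts in KO, 1246 and 2803 in C54Y, and 329 and 884 in WT. It rose in KO by 1.72 ± 0.16 (SE, adjusted p = 0.000534) and in C54Y by 1.79 (adjusted p = 0.00176, limma with the replicate block), and was the assembly factor called in C54Y. Each mutant library exceeded the WT library of its replicate number, and all 4 exceeded both WT libraries. Pcp2 lies within Pet100 on the opposite strand in GENCODE M21 and had at most 10.4 normalized counts in any library.

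The 17 citric acid cycle genes tested had a median of 0.18 in KO, where the X-linked Idh3g and Pdha1 rose, and 0 were called in C54Y. Of 20 mitochondrial import genes 1 rose, the X-linked Timm17b (1.09, adjusted p = 0.00245, limma with the replicate block). Of 17 tested regulators of mitochondrial genes, 2 rose in KO: Polg, the polymerase of mitochondrial DNA (0.68), and Esrrb, a nuclear receptor that is also among the stem cell markers (1.13). Nrf1 had 2699 and 3304 normalized counts in KO, 2049 and 2850.1 in C54Y, and 1834 and 2615 in WT, and was not called (0.45, adjusted p = 0.0684, limma with the replicate block). Gabpa had 5830.4 and 696 in KO, 4151 and 763 in C54Y, and 3631 and 753 in WT, lower in replicate 2 in every genotype. Yy1 had a value of -0.13. Mitochondrial ribosomal protein genes, a list taken by symbol prefix after values had been seen, had 3 up and 0 down of 77 in KO, with a median of 0.12, and 0 called in C54Y. That share called up in KO was below the 8.9% of all genes tested.

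Calls for single members depended on the libraries and the scaling. Atp5g1, Ndufa1, Ndufa4l2 and Ndufb11 kept their KO call in all 14 alternatives with the replicate block. Cox5a and Ndufa11 lost it only without WT replicate 2, and Ndufb4 and Uqcr10 only without WT replicate 1. Atp5a1, Atp5g3 and Uqcrc1 lost it in 8 alternatives, Atp5b in 6, and Ndufv3 and Cox4i2 in 5. For Cox4i2 these include the filter at 50 normalized counts, which it did not meet, so it was not tested there. With TMM factors in edgeR 9 members were called up and 2 down in KO, and over all genes 1088 up and 1369 down, in place of 1361 and 1133. The median over all genes tested was then -0.05 and that of the members 0.09. Without the replicate block no member was called in any comparison at the adjusted threshold by limma, and 0 had an unadjusted p under 0.05.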

How the data were processed

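The authors deposited 1 table of normalized counts, a signal per gene and library: reads divided by a size factor of the library. Per the submitters' processing notes, the mouse build was mm9 and the tools were TopHat2 2.1.0, HTSeq, DESeq2, Trimmomatic and CASAVA. Strand setting, gene annotation and filters are not given in the sources used here. All values deposited by the authors were whole multiples of 1 step per library (100% of values, tolerance 1e-06), so whole reads were recovered, 31774656 to 46772996 per library.

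The members and gene lists were chosen with earlier results of these data known. Genes with a normalized count of 10 or more in 2 libraries (15287 of 19713) were tested with limma 3.58.1 in R 4.3.3 (robust trend) on log2(normalized count + 2), with genotype and replicate number as terms over all 6 libraries, and Benjamini-Hochberg adjustment over all tested genes at 0.05. Deviations from group means correlated between same-numbered libraries (0.895 for KO and C54Y, 0.869 for KO and WT, 0.907 for C54Y and WT), so the numbers pair the samples. The block left 2 residual degrees of freedom (median residual SD 0.20 on the log2 scale, against 0.59 without the block). edgeR 4.0.16 and DESeq2 1.42.0 on the recovered reads were alternatives. The fit was tested on simulated data.

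Named with all values were the members called in any comparison, the highest and lowest of each complex, X-linked members and tissue-restricted isoforms; other members named beside them, such as Ndufs1, Ndufa4, Cox4i1 and Atp5g2, were chosen after their values were seen. Symbols were matched to RefSeq (GRCm38.p6) for chromosomes (99.5% of tested genes) and promoters (67 members), and to GENCODE M21 for exon length (79 members). Of the members, 10 have named pseudogenes and 11 share over 10% of their exon bases with another gene, so their counts may be split or joined. Intervals and p-values do not cover steps before the deposited table. Values of some single genes are not reported here.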

Additional observations from a re-analysis of the deposited data

How the results depend on the processing

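No paired or unpaired setting reversed a called value. The median over members in KO over WT stayed positive, at 0.081 with limma and 0.087 with edgeR on TMM factors, between 0.10 (without KO replicate 1) and 0.34 (without KO replicate 2) when leaving out a library, and 0.16 without X-linked members. Without the replicate block, limma called 0 members up and 0 down in each comparison; over all genes 0 were called, with 1049, 252 and 207 at an unadjusted p under 0.05 for KO over WT, C54Y over WT and KO over C54Y. For KO over WT, 8 members rose when only the 4 libraries compared were fitted, and leaving out 1 library gave 7 to 37. The highest, 37, came without KO replicate 2 and the lowest, 7, without either WT replicate. Members called down were 2 with edgeR and with limma on TMM factors, 0 with DESeq2 and 0 where 50 normalized counts were required, and 0 to 3 when leaving out a library (3 without KO replicate 1, 0 without a WT replicate). For C54Y over WT, 0 members rose with a pseudocount of 1 or 8, with no filter on low values, with the filter at 50 and with limma on TMM factors, and 6 with only the 4 libraries. Leaving out a library gave 0 to 8 up (8 and 5 without KO replicate 1 and 2, 0 without either C54Y replicate or WT replicate 2). Members called down in C54Y, Ndufb5 in each case, were 1 with edgeR, DESeq2, limma on TMM factors or only the 4 libraries, and 0 to 1 when leaving out a library. The C54Y median lay between -0.028 and 0.080 when leaving out a library. For KO over C54Y, leaving out a library gave 0 to 27 up and 0 to 1 down, with 27 and 1 without KO replicate 2 and 1 and 1 without KO replicate 1. A lone library is assumed to vary like the other groups. Causes of these changes were not tested. DESeq2 called 343 genes up and 136 down in C54Y, in place of 147 and 61.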
